A study of Mus musculus with 8 samples.

Results

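Rag1 (Entrez Gene 19373), Rag2 (19374) and Dntt (21673), the genes for both recombinase subunits and for terminal transferase, were followed through 8 RNA-seq libraries of sorted mouse bone marrow cells. They were chosen by symbol, 3 of the 27179 identifiers in the count table, with earlier results of these data known, and the rule set no threshold on a measured value. All 3 passed the filter on low counts in every comparison. The libraries form 4 groups of 2 biological replicates. Pre-proB, proB and preB cells, successive stages of early B-cell development, came from adult Ergfl/fl mice, which carry floxed alleles of the ETS factor gene Erg and no Cre. The fourth group was pre-proB cells of Rag1CreT/+;ErgΔ/Δ mice, called Erg-deficient here, in which a Rag1Cre transgene has deleted Erg from the common lymphoid progenitor onwards. The genotypes therefore differ both in Cre and in Erg, and no group carrying Rag1Cre alone was analysed here. The study's methods name 2 mice of each genotype, so the 3 Ergfl/fl stages may share animals, and the labels do not say which mouse gave which library. The tests treat the 6 Ergfl/fl libraries as independent. All sort gates required B220 and excluded IgM, IgD, NK1.1 and CD11c, and the stages were parted by CD43 and CD24. Each library is bulk RNA, in which fewer cells of a type and less RNA per cell cannot be told apart.

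The RAG1 and RAG2 proteins form the recombinase that cuts DNA beside the V, D and J segments of antigen receptor genes. RAG1 holds the active site, while RAG2 is needed for cutting and reads a histone mark at active chromatin. In B lymphopoiesis heavy chain segments are joined in pre-proB and proB cells, and light chain segments in preB cells after a round of division. Terminal transferase, the product of Dntt, adds nucleotides without a template (N nucleotides) to the cut ends before they are joined. In adult mice N nucleotides are common in heavy chain junctions and rare in those of kappa light chains.

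Rag1 and Rag2 are neighbours that point towards each other. On GRCm38 (mm10) RefSeq places Rag1 at chr2:101638252-101649532 on the minus strand and Rag2 at chr2:101624712-101632528 on the plus strand, with 5723 bp between them. In the GENCODE annotation the coding part of each lies in 1 exon, of 2 exon blocks for Rag1 and 3 for Rag2. Dntt lies apart on the plus strand, chr19:41029275-41059525, with coding sequence in 12 of its 13 exon blocks. Iftap, a gene on the minus strand, overlaps Rag2 over 4320 bp of the RefSeq genes, and its GENCODE exons share 208 bases with those of Rag2 and 80 with those of Rag1. The sources used here do not say whether the counting used strand, and without it reads from the shared exon bases cannot be told apart.

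The 250 bases before each RefSeq start are shown to set the promoter of Rag1 beside that of its neighbour and that of Dntt, since Erg is an ETS factor and the E proteins and Myb are described as acting on these genes. They are written 5′ to 3′ on the strand of the gene, from chr2:101649533-101649782 for Rag1, chr2:101624462-101624711 for Rag2 and chr19:41029025-41029274 for Dntt (RefSeq, GRCm38.p6). Capitals mark matches on either strand to CANNTG (the E-box), GGAAGT (a longer ETS sequence), TAACNG (Myb) and CCAAT.
Rag1: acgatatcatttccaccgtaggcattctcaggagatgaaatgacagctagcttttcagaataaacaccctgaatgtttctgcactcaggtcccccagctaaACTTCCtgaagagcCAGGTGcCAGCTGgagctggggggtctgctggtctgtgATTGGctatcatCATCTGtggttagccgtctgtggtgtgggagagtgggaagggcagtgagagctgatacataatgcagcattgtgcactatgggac
Rag2: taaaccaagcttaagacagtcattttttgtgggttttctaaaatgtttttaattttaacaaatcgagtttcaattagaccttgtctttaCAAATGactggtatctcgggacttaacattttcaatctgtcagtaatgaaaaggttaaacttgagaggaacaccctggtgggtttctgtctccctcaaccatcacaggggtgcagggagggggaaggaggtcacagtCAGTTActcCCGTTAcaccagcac
Dntt: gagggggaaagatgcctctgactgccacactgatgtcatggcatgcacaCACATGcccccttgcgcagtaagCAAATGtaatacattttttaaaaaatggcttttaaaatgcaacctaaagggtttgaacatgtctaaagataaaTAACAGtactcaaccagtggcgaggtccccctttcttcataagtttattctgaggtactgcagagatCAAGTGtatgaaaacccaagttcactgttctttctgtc
The Rag1 window held 3 E-boxes, 1 match to GGAAGT and 1 to CCAAT. The Rag2 window held 1 E-box and 2 Myb sequences, and the Dntt window 3 E-boxes and 1 Myb sequence. An E-box occurs in 66.2% of the 32851 promoter windows of the same length, GGAAGT in 19.7%, the Myb sequence in 19.8% and CCAAT in 33.8%. The short ETS core GGAA, not capitalised on its own, had 3, 2 and 1 matches in the order above and is present in 93.4% of windows, and its matches include the longer sequence. TGGGAA (Ikaros), which overlaps the ETS core, had 1 match in Rag1 and is in 21.6% of windows. None of the 3 windows held TATAAA (12.4% of windows), GTAAACA (Foxo, 3.17%) or CCCNNGGG (Ebf1 half-sites, 11.8%). These are matches of letters and say nothing of binding. The GC content was 50.8% for Rag1, 41.2% for Rag2 and 41.6% for Dntt.

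Library totals ranged from 15565381 to 18457632 counts. Erg, the targeted gene, was at 69.1 and 25.3 CPM (counts scaled to TMM-normalised library size) in Ergfl/fl pre-proB cells and at 2.50 and 2.58 CPM in Erg-deficient ones. Replicates of every group differed by more than counting noise, the chi-square over its degrees of freedom being 3.82 to 8.29. Within the Ergfl/fl pre-proB group replicate 1 stood above replicate 2 for all 3 genes, by 2.35 times for Rag1, 2.31 for Rag2 and 1.59 for Dntt. Erg in the same pair differed by 2.73 times and the summed CPM of 9 B-lineage markers by 1.29 times. For the 3 genes and for Dntt relative to both Rag genes, results that rest on this pair are also given without each library. The gene lists were not rerun in this way. In each replicate every one of the 3 genes was well counted, the lowest count being 42 for Rag2 in Erg-deficient replicate 2.

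In Ergfl/fl cells Rag1 RNA rose at both steps, from pre-proB to proB and from proB to preB. Pre-proB cells held 283 and 120 CPM of Rag1, proB cells 660 and 562 CPM, and preB cells 1855 and 1916 CPM. The libraries of the 3 stages did not overlap, and those of preB cells were the closest to each other. The mean was 201 ± 115 CPM (SD, n = 2) for pre-proB, 611 ± 69.4 CPM for proB and 1885 ± 43.8 CPM for preB cells. From pre-proB to proB cells Rag1 rose 3.11-fold, a log2 fold change of 1.64 with a standard error (SE) of 0.311 (adjusted p = 0.00135 by the quasi-likelihood test of edgeR after Benjamini-Hochberg adjustment). At the next step it rose 3.10-fold, a log2 fold change of 1.63 (SE 0.307, edgeR adjusted p = 0.00204). Over both steps the rise was 9.65-fold (log2 3.27, SE 0.329, edgeR adjusted p = 2.81e-05). The first rise was 2.33 on the log2 scale without pre-proB replicate 1 and 1.12 without replicate 2, and the rise over both steps 3.95 and 2.74. With robust estimation in edgeR the adjusted p of the single steps was 0.0517 and 0.0606.

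Rag2 RNA rose at the first step, and its difference at the second was not past the threshold. Pre-proB cells held 43.6 and 18.8 CPM, proB cells 125 and 119 CPM, and preB cells 149 and 151 CPM. The pre-proB libraries lay below the other Ergfl/fl libraries, while the proB and preB libraries were close, though without overlap. From pre-proB to proB cells Rag2 rose 4.01-fold (log2 2.00, SE 0.271, edgeR adjusted p = 0.000167). Between proB and preB cells the log2 fold change was 0.31 (SE 0.243, edgeR adjusted p = 0.293), and it passed the threshold only without pre-proB replicate 1 (log2 0.30) or replicate 2 (log2 0.31), libraries that enter the fit through the shared estimate of the spread. Over both steps Rag2 rose 4.99-fold (log2 2.32, SE 0.271, edgeR adjusted p = 7.49e-05). Without pre-proB replicate 1 the first rise was 2.67 and the rise over both steps 2.97 on the log2 scale, and without replicate 2 they were 1.49 and 1.79.

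Dntt RNA took another course, high in pre-proB and proB cells and low in preB cells. Pre-proB cells held 721 and 453 CPM, proB cells 840 and 859 CPM, and preB cells 72.3 and 147 CPM. Both preB libraries lay below all others, and they differed from each other more than the proB pair did. From proB to preB cells Dntt fell 7.71-fold (log2 -2.95, SE 0.320, edgeR adjusted p = 0.000103), and preB lay 5.20-fold below pre-proB cells (log2 -2.38, SE 0.314, edgeR adjusted p = 0.000158). Without preB replicate 2 these were -3.59 and -3.01 on the log2 scale, and without preB replicate 1 -2.52 and -1.95. The proB level was not distinguishable from the pre-proB level, with a log2 fold change of 0.57 (SE 0.295, edgeR adjusted p = 0.112). That difference passed without pre-proB replicate 1 (log2 0.89) and without either preB library (0.57 and 0.58), and was 0.24 without pre-proB replicate 2.

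Calls were frequent between stages in general. Between proB and pre-proB cells 2 of the 3 genes were called, where 73% of 13650 genes were. Between preB and proB cells 2 of 3 were called, against 58.9% of genes, and between preB and pre-proB cells 3 of 3, against 70.7%. By direction, 36.2% of genes were higher and 36.8% lower in proB than in pre-proB cells, 29% higher and 29.9% lower in preB than in proB, and 36.5% higher and 34.1% lower in preB than in pre-proB cells. That last split of 4988 higher and 4661 lower became 4748 and 4840 with the size factors of DESeq2. The first split, 4937 higher and 5024 lower, became 5252 and 4734 with scaling by total counts. The share of the 3 genes called was therefore near that of all genes.

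**Figure D1:**
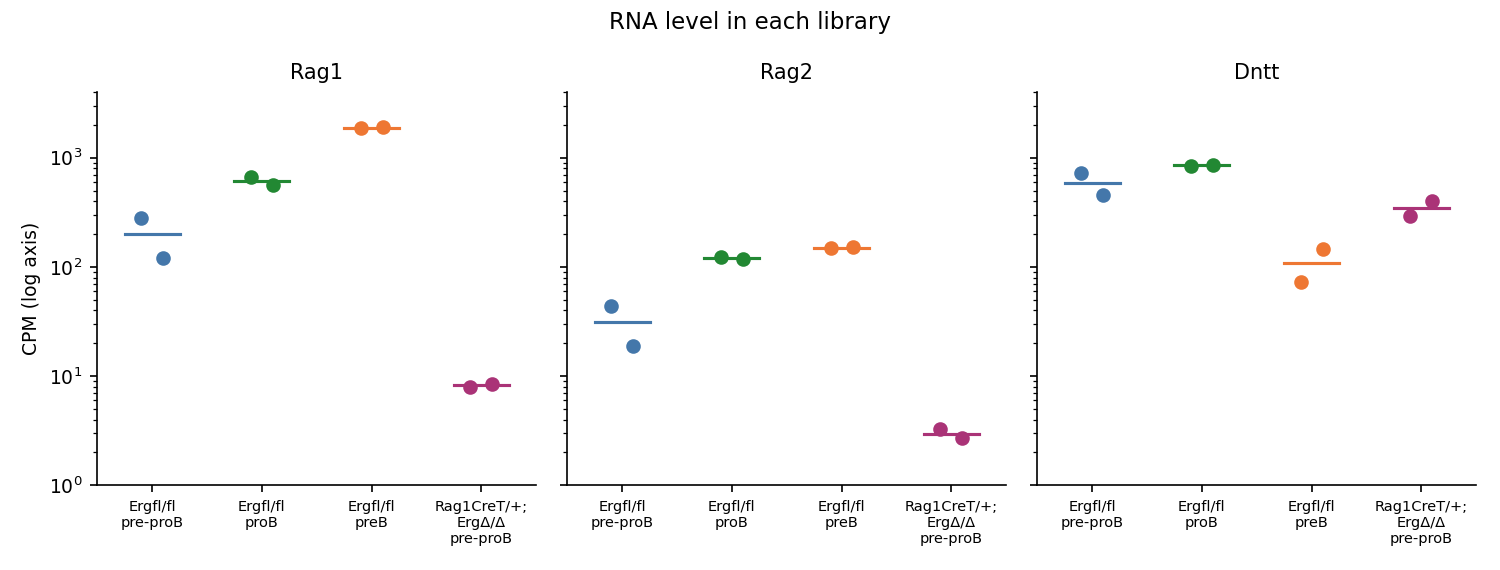
CPM (log axis) of Rag1, Rag2 and Dntt in each library, by group; points are libraries and horizontal lines are group means. Rag1 rises across the 3 Ergfl/fl stages to 1855 and 1916 CPM, Dntt drops to 72.3 and 147 CPM in preB cells, and Rag1 and Rag2 lie lowest in Erg-deficient pre-proB cells.

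**Figure D2:**
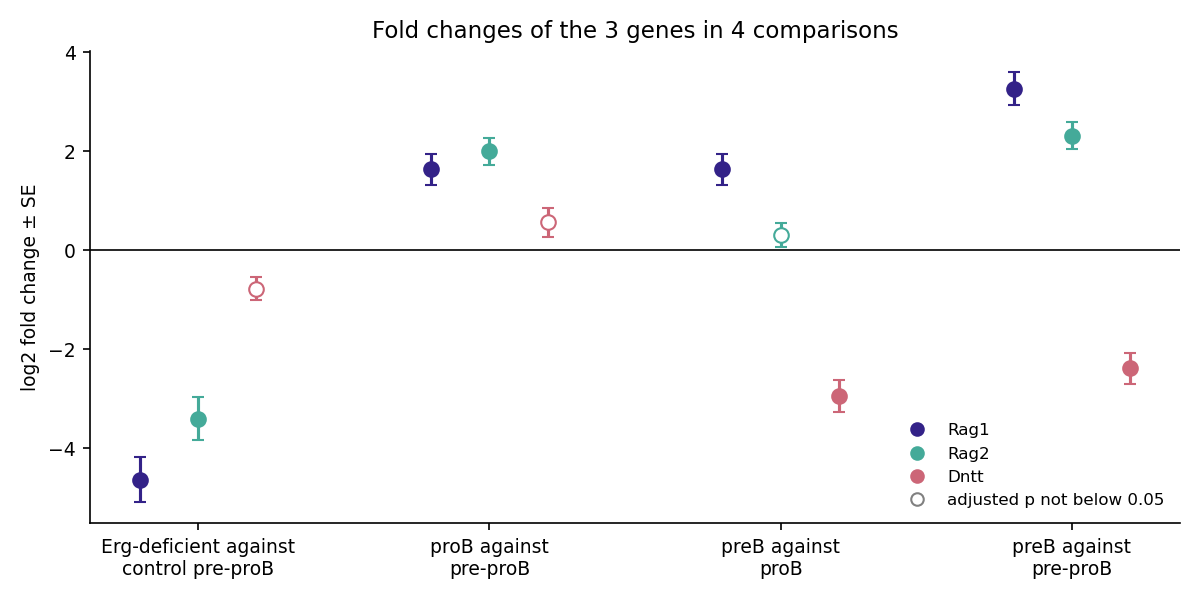
Log2 fold change with its standard error for the 3 genes in each comparison; filled points have an adjusted p below 0.05 in edgeR, open points do not. Rag1 and Dntt lie on opposite sides of 0 from proB to preB cells, at 1.63 and -2.95, and Dntt is the nearest to 0 of the 3 in Erg-deficient against control pre-proB cells.

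To set the genes beside each other, CPM were divided by the length of the merged GENCODE exons, 6.608 kb for Rag1, 3.424 kb for Rag2 and 2.292 kb for Dntt. On this scale Dntt averaged 256 CPM per kb in pre-proB, 371 in proB and 47.8 in preB cells. Rag1 averaged 30.5, 92.4 and 285 CPM per kb in the same order, and Rag2 9.11, 35.5 and 43.9. Dntt thus held the highest level per length in pre-proB and proB cells, and Rag1 in preB cells.

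The balance between terminal transferase and the recombinase was then taken within each library, as a ratio of CPM per kb with 0.5 CPM added to every value. The ratio of Dntt to Rag1 was 7.34 and 10.8 for pre-proB cells, 3.67 and 4.41 for proB cells, and 0.113 and 0.221 for preB cells. It stood above 1 in every pre-proB and proB library and below 1 in both preB libraries. The ratio of Dntt to Rag2 was 24.5 and 35.0 for pre-proB cells, 10.03 and 10.8 for proB cells, and 0.725 and 1.45 for preB cells, so that the preB replicates lay on either side of 1. On the log2 scale, Dntt over the mean of Rag1 and Rag2 was 4.01 ± 0.381 (SD, n = 2) in pre-proB, 2.69 ± 0.130 in proB and -1.31 ± 0.695 in preB cells. The change was -1.32 from pre-proB to proB cells (standard error 0.360, taking the errors of the 3 genes as independent) and -4.01 from proB to preB cells (standard error 0.375), a 16.1-fold shift towards the recombinase. Over both steps it was -5.33 (standard error 0.379), or 40.1-fold. Without pre-proB replicate 1 the first change was -1.59 and that over both steps -5.60. Without pre-proB replicate 2 they were -1.05 and -5.06. The larger of the shifts lay between the heavy chain and the light chain stage, where Rag1 rose and Dntt fell.

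The balance between the recombinase genes themselves was taken in the same way. Per kb, Rag1 exceeded Rag2 by 3.33 and 3.23 times for pre-proB, by 2.73 and 2.44 times for proB and by 6.41 and 6.54 times for preB cells. The preB ratios were the highest, and the 3 stages did not overlap. On the log2 scale Rag2 over Rag1 was -1.71 ± 0.0306 (SD, n = 2) in pre-proB, -1.37 ± 0.114 in proB and -2.70 ± 0.0200 in preB cells. It changed by 0.34 from pre-proB to proB (standard error 0.413) and -1.32 from proB to preB cells (standard error 0.392, errors taken as independent). In the pre-proB pair replicate 1 was higher by 2.35 times for Rag1 and 2.31 for Rag2. The standard errors ignore this shared difference and exceed the SD of the ratio. An exact permutation test over the 6 Ergfl/fl libraries gave p = 0.0667, two-sided, for each of these ratios, the smallest that its 90 arrangements allow. For any 2 groups the exact test cannot go below p = 0.333.

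**Figure D3:**
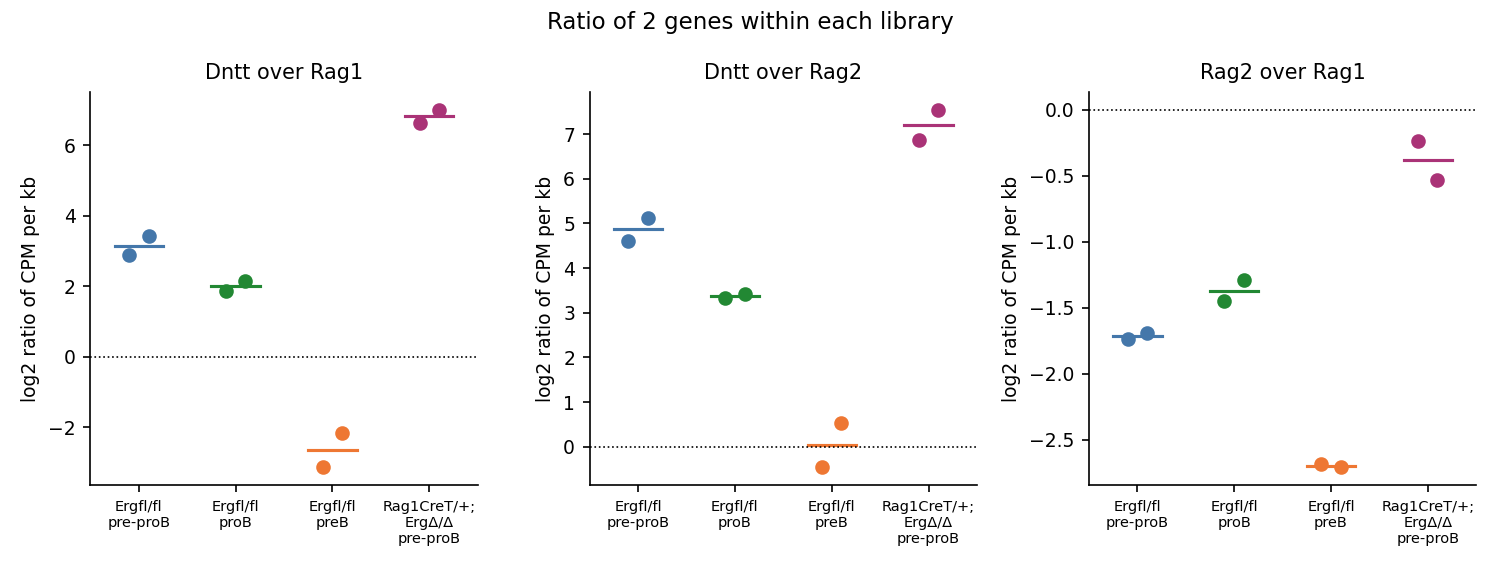
Log2 ratios of CPM per kb between 2 of the genes within each library, with 0.5 CPM added to each value; points are libraries, lines are group means and the dotted line marks equal levels. Dntt over Rag1 is above 0 in pre-proB and proB libraries and below 0 in preB libraries, and Rag2 over Rag1 is lowest in preB cells.

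In Erg-deficient pre-proB cells Rag1 and Rag2 RNA fell to a small remainder, while the difference in Dntt was not past the threshold. Rag1 was at 8.00 and 8.46 CPM, against 283 and 120 in Ergfl/fl pre-proB cells, and 4.08% of the control mean remained. Rag2 was at 3.25 and 2.71 CPM, 9.55% of the control mean. Both genes lay far below each control library, and the Erg-deficient replicates were close to each other. The log2 fold change of Rag1 was -4.63 (SE 0.448, edgeR adjusted p = 0.0178) and that of Rag2 -3.40 (SE 0.436, edgeR adjusted p = 0.0241). Without control replicate 1 they were -3.87 and -2.66, and without control replicate 2 -5.14 and -3.90, all past the threshold. Dntt was at 294.0 and 400.0 CPM against 721 and 453, or 59.1% of the control mean, without overlap. Its log2 fold change of -0.77 (SE 0.236, edgeR adjusted p = 0.237) was not past the threshold, and it passed only without control replicate 2 (log2 -1.09, edgeR adjusted p = 0.00413), while without control replicate 1 it was -0.39. Of the 3 genes 2 were called, both lower, where 1.16% of 13005 genes were called, 0.946% lower and 0.215% higher. Over all genes that was 123 lower and 28 higher, but 6 lower and 10 higher without Erg-deficient replicate 1, and 9 lower and 1 higher without replicate 2. The calls of Rag1 and Rag2 were lost under some settings. Adjusted p in edgeR was 0.299 and 0.316 with robust estimation, 0.155 and 0.195 without Erg-deficient replicate 1 and 0.151 and 0.187 without replicate 2, and in limma-voom it was 0.0704 and 0.188, with log2 fold changes no nearer to 0 than -4.50 and -3.25.

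Within each Erg-deficient library the ratio of Dntt to Rag1 per kb was 99.9 and 129, and that of Dntt to Rag2 117 and 186. These lay above all 6 Ergfl/fl libraries. Dntt relative to both Rag genes was higher than in control pre-proB cells by a log2 value of 3.00 (standard error 0.392, errors taken as independent), or 7.99-fold. That value was 2.73 without control replicate 1 and 3.27 without control replicate 2. The Rag1 to Rag2 ratio per kb was 1.17 and 1.45, below all Ergfl/fl libraries. Rag2 relative to Rag1 was higher by a log2 value of 1.34 (standard error 0.625, errors taken as independent), and by 1.57 with a pseudocount of 2 CPM. The SD of this log2 ratio was 0.212 in Erg-deficient and 0.0306 in control pre-proB cells. The Cre in these mice is named for Rag1, and the sources used here do not say whether that allele alters Rag1 RNA itself. Its part in the Rag1 values cannot be told apart from that of Erg. Iftap, which shares exon bases with both genes, was at 17.4 and 17.6 CPM in these libraries, and its part in their low counts was not tested.

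In order of level, Rag1 and Rag2 both ran from preB through proB and control pre-proB to Erg-deficient pre-proB cells, and the neighbours preB and proB were not told apart for Rag2. Dntt ran from proB through control pre-proB and Erg-deficient pre-proB to preB cells. For Dntt the first 3 groups in that order were not told apart between neighbours, and the last pair was not tested.

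None of 3 genes beside the Rag pair was called between genotypes, where 1.16% of all genes were. They are Iftap, Traf6, a ubiquitin ligase gene of innate immune signalling, and Prr5l, whose product binds mTORC2. Traf6 was at 95.6 and 89.0 CPM in control and 90.9 and 87.6 in Erg-deficient pre-proB cells, and at 211 and 198 in preB cells. It rose from pre-proB to proB (log2 0.31, edgeR adjusted p = 0.00352) and from proB to preB cells (log2 0.88, adjusted p = 1.96e-05). Prr5l fell at both steps, from 12.8 and 12.3 CPM to 0.819 and 0.977 CPM, and then to 0.233 and 0.225 CPM. Iftap fell from pre-proB to proB (log2 -0.87, edgeR adjusted p = 0.00196) and rose from proB to preB cells (log2 0.91, adjusted p = 0.00232).

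A list of 16 transcription factor genes described as acting on the Rag genes was read next, not split by whether a factor raises or lowers Rag RNA. In Erg-deficient pre-proB cells 4 of the 15 tested were lower and none was higher, where 0.946% of all genes were lower and 0.215% higher. The median log2 fold change was -0.44, beside 0.01 over all genes. Ebf1, a B-lineage specification factor, fell from 59.1 and 21.3 to 0.437 and 0.516 CPM (log2 -6.39, edgeR adjusted p = 0.0178). Pax5, the B-lineage commitment factor, fell from 26.8 and 7.78 to 0.437 and 0.0646 CPM (log2 -6.06, adjusted p = 0.0356), and Lef1, a Wnt pathway factor gene, by 4.75 on the log2 scale (adjusted p = 0.0203). Bach2, a repressor of plasma cell fate, fell by 0.74 (adjusted p = 0.0404). The other 11 were not called, among them Tcf3, which encodes the E proteins E12 and E47, at 239 and 193 against 154 and 148 CPM (log2 -0.53, adjusted p = 0.0869), and Foxo1, at 132 and 104 against 85.7 and 89.4 CPM (log2 -0.44, adjusted p = 0.175). Myb was not called either (log2 -0.59, edgeR adjusted p = 0.104). The study named Tcf3 and Myb among its deregulated factors, so the calls here differ. Elsewhere it described Tcf3 expression as maintained. Like Rag1 and Rag2, Ebf1, Pax5 and Lef1 were higher in control replicate 1 than in replicate 2.

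Between stages, 13 of these 16 genes rose and 3 fell from pre-proB to proB cells, with a median log2 fold change of 1.26 beside 0.0040 over all genes, of which 36.2% rose and 36.8% fell. Bach2 rose by 2.77, Gfi1 by 2.50, Tcf3 by 1.97 and Myb by 1.61 on the log2 scale, while Bcl11a fell by 1.63. Gfi1b rose by 3.76, from 0.449 and 0.729 to 8.36 and 7.51 CPM, so it started near the filter of 0.5 CPM. From proB to preB cells 8 rose and 3 fell, where 29% of all genes rose and 29.9% fell. Foxp1, a forkhead factor, rose from 341 and 324 to 700 and 664 CPM (log2 1.04, edgeR adjusted p = 1.05e-05), Bach2 by 0.97, Foxo1 by 0.85 and Tcf12, an E protein gene, by 0.68. Ebf1 and Pax5 were not called at that step, at log2 0.27 and 0.55. From pre-proB to preB cells 12 rose and 1, Bcl11a, fell, where 36.5% of all genes rose and 34.1% fell.

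**Figure D4:**
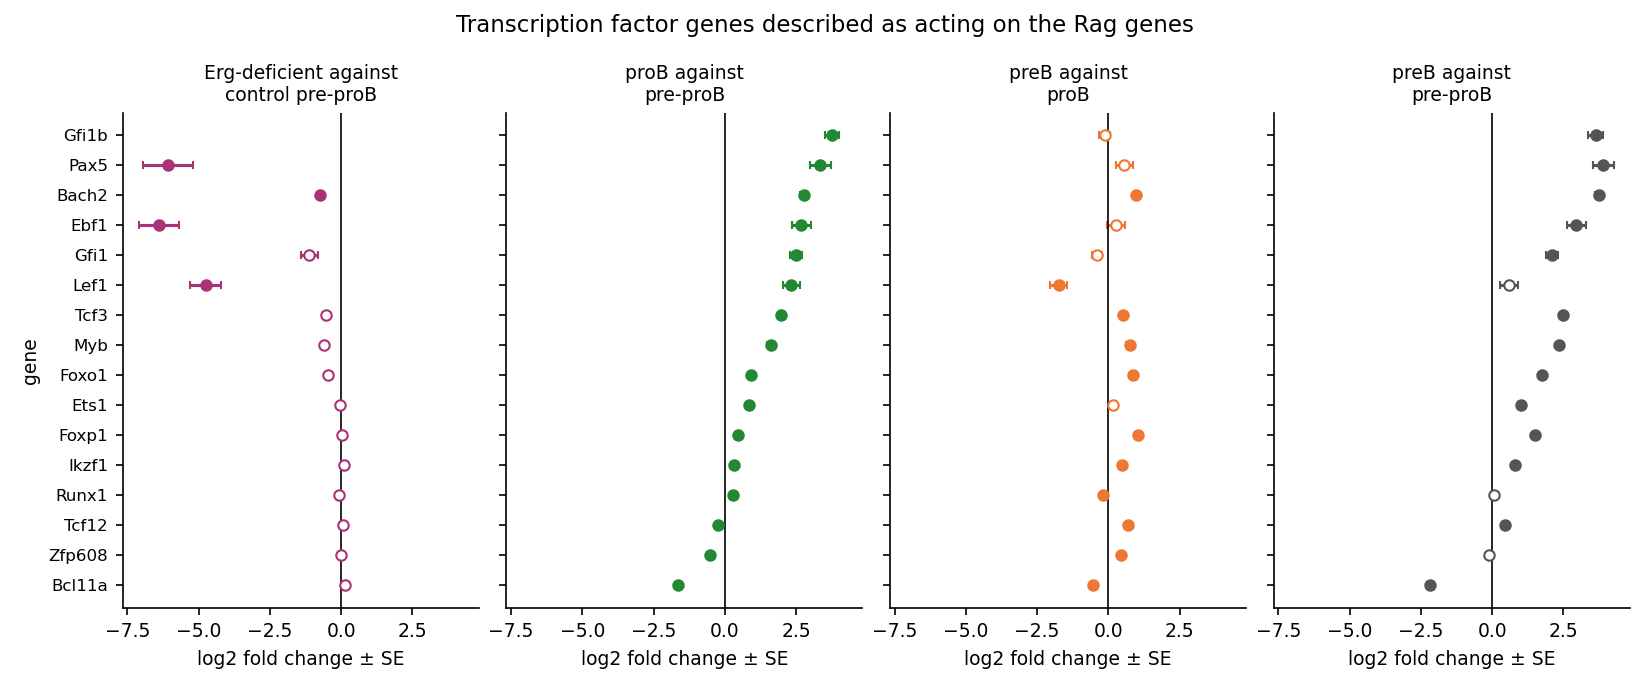
Log2 fold changes with standard errors of the transcription factor genes described as acting on the Rag genes, in 4 comparisons; filled points have an adjusted p below 0.05 in edgeR, and Gfi1b was not tested in the first. Pax5, Ebf1 and Lef1 lie farthest below 0 in Erg-deficient cells, at -6.06, -6.39 and -4.75.

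Dntt belongs to the family X DNA polymerases, whose other members fill gaps during repair and end joining, and values of the 4 genes are set side by side here. Polm encodes polymerase mu, the nearest relative of terminal transferase, and acts at light chain junctions. Pre-proB cells held 21.6 and 26.6 CPM of Polm, proB cells 120 and 107 CPM, and preB cells 484 and 472 CPM. It rose by a log2 value of 2.27 (SE 0.105, edgeR adjusted p = 2.11e-07) and then by 2.08 (SE 0.0939, edgeR adjusted p = 2.85e-06), the second at the step where Dntt fell. Per kb, Polm averaged 31.1 CPM per kb in proB, below Dntt at 371, and 131 in preB cells, above Dntt at 47.8. Poll encodes polymerase lambda, which acts at heavy chain junctions, and it peaked in proB cells at 18.3 and 21.2 CPM, against 4.36 and 2.67 CPM before and 5.64 and 7.44 CPM after that stage. Its rise was 2.53 (adjusted p = 1.30e-05 in edgeR) and its fall 1.59 on the log2 scale (adjusted p = 0.000305 in edgeR). Polb, for the base excision repair polymerase beta, lay between 22.1 and 32.2 CPM in all 8 libraries. None of the 4 was called between genotypes, where 1.16% of all genes were. Poll was at 1.19 and 1.16 CPM in Erg-deficient cells (log2 -1.59, edgeR adjusted p = 0.104) and Polm at 24.1 and 21.0 CPM (log2 -0.10, adjusted p = 0.785).

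**Figure D5:**
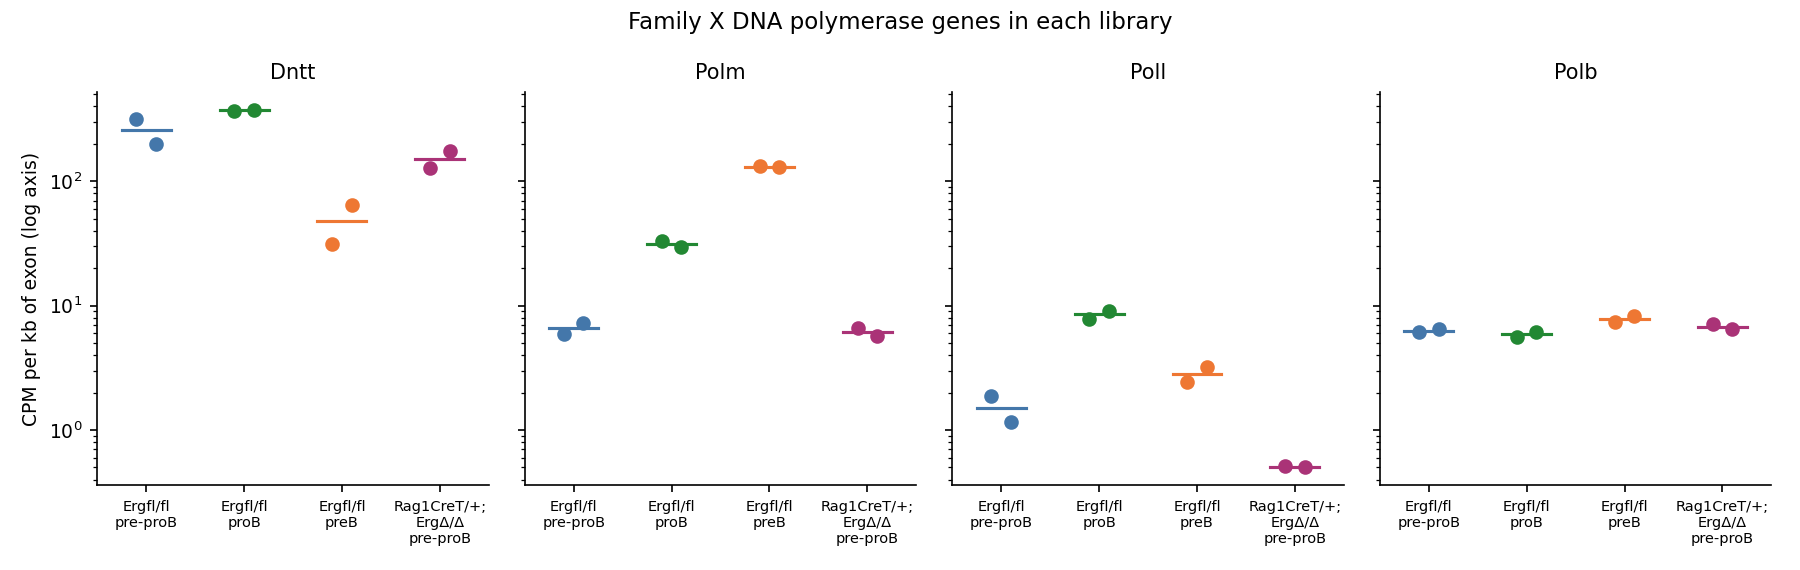
CPM per kb of exon (log axis) of the family X polymerase genes in each library; points are libraries and lines are group means. Dntt is the highest of the 4 in pre-proB and proB cells and Polm in preB cells, at 131 CPM per kb against 47.8 for Dntt.

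The joining machinery that acts on RAG-cut ends was read as a list of 14 genes, Polm and Poll included. None of the 14 was called between genotypes, with a median log2 fold change of -0.07. Of all genes 1.16% were called, so none called in a list of 14 is near that share. Nearest to the threshold was Lig4, the ligase of end joining, at 26.3 and 17.9 against 10.2 and 10.3 CPM (log2 -1.12, edgeR adjusted p = 0.0626). Xrcc6, which encodes Ku70, was at 201 and 129 against 96.0 and 106 CPM (log2 -0.72, edgeR adjusted p = 0.188). The study reported both Lig4 and Xrcc6 as deregulated in Erg-deficient pre-proB cells, so the calls here differ from its own. From pre-proB to proB cells 8 rose and 4 fell, so that 12 of 14 were called where 73% of all genes were. Xrcc5, which encodes Ku80, rose by 3.26 on the log2 scale, from 5.26 and 3.65 to 41.3 and 41.8 CPM, H2ax by 1.93 and Lig4 by 2.35. Dclre1c, for the hairpin-opening nuclease Artemis, fell by 1.33. From proB to preB cells 7 rose and 4 fell, 11 of 14 called against 58.9% of all genes. Paxx rose by 0.80 and Dclre1c by 0.85, and Xrcc5 fell by 0.98. Lig4 rose again, by 0.73, to 182 and 181 CPM. Lig4, Polm, Xrcc6 and Rnf8 rose at both steps, and Xrcc5, Poll and H2ax rose to proB cells and fell after.

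Genes for proteins that assist or remove RAG were read as a list of 13. HMGB1 and HMGB2 bend DNA for the recombinase, the kinase CDK2 with cyclin A2 marks RAG2 for breakdown by the SCF complex with SKP2, and DDB1, CUL4A and DCAF1 form a ligase that binds RAG1. None of the 13 was called between genotypes, which is near the share of 1.16% over all genes. From pre-proB to proB cells 11 rose and none fell, beside 36.2% and 36.8% of all genes. On the log2 scale Hmgb2 rose by 2.22, Ccna2 by 2.43, Hmgb1 by 1.71, Skp2 by 1.77, Cks1b by 1.51 and Cdk2 by 1.21. From proB to preB cells 10 fell and 1 rose, beside 29.9% and 29% of all genes. Skp2 fell by 0.79 on the log2 scale (adjusted p = 7.07e-05 in edgeR), Cks1b by 0.65 and Hmgb1 by 0.55, and Cdkn1b, the cell cycle inhibitor p27, rose from 125 and 116 to 234 and 243 CPM (log2 1.00, edgeR adjusted p = 1.66e-05). Several of these genes are also cell cycle genes, and 15 of 15 proliferation markers rose from pre-proB to proB cells and 15 of 15 fell from proB to preB cells, their summed CPM being 1803 and 2001, then 8174 and 7933, then 5826 and 4956. Between genotypes none of the 15 was called, again near the share of 1.16% over all genes. The part of cell division in the values of Rag1, Rag2 and Dntt was not tested.

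Genes whose levels ran most like each of the 3 were found by Pearson's r on log2(CPM + 0.5) over the 8 libraries among 13477 genes, as a description only, since libraries of a group share their stage. The 5 nearest to Rag1 were Col27a1 (r = 0.997), Steap4, Igkv2-137, Ighv10-1 and Camk1g (0.994). Steap4 was at 26.4 and 9.60 CPM in the control pre-proB libraries, 47.1 and 35.6 CPM at the proB and 123 and 147 CPM at the preB stage. The 5 nearest to Rag2 were Ighv1-7 (r = 0.999), Pax5, Asb2, Vpreb3 and Ebf1 (0.997), of which Pax5, Vpreb3 and Ebf1 belong to the B-lineage programme. The 5 nearest to Dntt were Arpp21 (r = 0.993), Mfsd13a, Klk8, Dlg2 and Hebp1 (0.982). Arpp21 was at 49.0 and 30.7 CPM in the control pre-proB libraries, 61.9 and 62.6 CPM at the proB and 6.34 and 11.5 CPM at the preB stage. Between the genes themselves r was 0.986 for Rag1 with Rag2, -0.244 for Rag1 with Dntt and -0.128 for Rag2 with Dntt.

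Marker lists gave the cell content beside these results. Of all genes, 1.16% were called between genotypes, 0.946% lower and 0.215% higher. From pre-proB to proB cells 36.2% of all genes rose and 36.8% fell, and from proB to preB cells 29% rose and 29.9% fell. Beside the share between genotypes, a list this short with none called says little about its genes. Of 9 B-lineage markers 6 were lower in Erg-deficient pre-proB cells and none higher, with summed CPM of 2799 and 2176 in control and 1929 and 1943 in Erg-deficient cells. Between stages 8 of 9 rose from pre-proB to proB cells. Plasmacytoid dendritic cell markers were abundant in both pre-proB groups, with sums of 9399 and 10007 CPM in control and 10921 and 11174 in Erg-deficient cells, against 318 and 345 CPM at the proB and 210 and 214 CPM at the preB stage. None of those 8 was called between genotypes, and 8 of 8 fell to proB cells. T-cell markers summed to 691 and 859 CPM in control and 1518 and 893 in Erg-deficient pre-proB cells, below 100 in every proB and preB library, with 0 of 8 called between genotypes and 7 of 8 lower in proB cells. Most of that sum was Cd4, at 474 and 614 CPM in control and 1214 and 623 in Erg-deficient cells, while Cd3e, a defining T-cell gene, was at 4.94 and 6.50 against 5.00 and 4.84 CPM. Of 8 NK-cell markers 4 were higher in Erg-deficient cells and none lower, and 8 of 8 fell to proB cells. Their sums were 204 and 208 CPM in control and 257 and 383 in Erg-deficient pre-proB cells. Most of the control sum was Klrd1, at 174 and 174 CPM, and its Erg-deficient mean was 110% of the control mean. The 4 called genes were at 816% (Ncr1), 915% (Gzma), 416% (Prf1) and 307% (Nkg7) of their control means. Of 8 myeloid markers Ltf and S100a9 were lower in Erg-deficient cells, with sums of 200 and 157 against 121 and 102 CPM. From pre-proB to proB cells 5 of 8 rose and 2 fell, and from proB to preB cells 6 of 8 fell, the proB libraries standing apart at 155 and 392 CPM and the preB libraries at 54.2 and 31.2. Erythroid markers summed to between 3.53 and 28.7 CPM in all libraries. No listed marker was at 0 in both libraries of a group. The part of these cells in the levels of Rag1, Rag2 and Dntt was not tested.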

How the data were processed

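RNA-seq was performed on 8 libraries, 2 biological replicates in each of 4 groups assigned by their labels. The authors trimmed reads with Trim Galore, aligned them to mm10 with STAR and counted them per gene with featureCounts, per the labels and the study's methods. The deposited values are raw counts for 27179 Entrez identifiers, of which 25275 had a RefSeq symbol. Library totals were 15565381 to 18457632, and intervals of counts would cover counting error only. The sources used here do not give the settings for multi-mapping reads or strand.

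Fold changes came from edgeR 4.0.16 (R 4.3.3, quasi-likelihood F-tests, legacy method, TMM), with the 4 pre-proB libraries fitted together and the 6 Ergfl/fl libraries likewise. Genes below 0.5 CPM in all but 1 library or in every library were dropped, which left 13005 and 13650, p-values were adjusted by Benjamini-Hochberg over all of them and a gene was called below 0.05. The standard error of a log2 fold change was its size over the square root of F. The residual degrees of freedom were 2 and 3, with 4.72 and 5.36 borrowed across genes. All 3 genes and the gene lists were chosen with earlier results of these data known. The genes named are the 3 members, Erg, members of the lists (called ones with the lowest p, at most 6 a list and comparison; uncalled ones named for contrast were picked after their values were seen), the neighbours at the Rag locus and the 5 genes nearest in pattern to each.

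Ratios between genes were planned as a limma test on differences within a library. That test could not be used, because the shared reference gene tied the errors of all genes together (total degrees of freedom of 26006 to 40947 against 2 to 3 residual). Means with SD, a standard error that takes gene errors as independent, and exact permutation tests were given instead, on log2(CPM + 0.5). Exon lengths were from GENCODE on GRCm38, promoters from RefSeq (GRCm38.p6). The edgeR steps were tested on simulated data. Alternatives were DESeq2 1.42.0 or limma-voom (limma 3.58.1), other scalings, filters and pseudocounts, robust or version 4 estimation, all 8 libraries in 1 fit, a block for the replicate number, and leaving out each library in turn. Figures used matplotlib 3.10.9.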

Additional observations from a re-analysis of the deposited data

How the results depend on the processing

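Alternatives were run for Rag1, Rag2, Dntt, their ratios and the numbers of genes called, not for the gene lists, and no fold change or ratio of the 3 genes changed direction. Rag1 and Rag2 between genotypes kept log2 fold changes of -4.63 and -3.40 with robust estimation but not their calls (adjusted p = 0.299 and 0.316 in edgeR), and were -4.50 and -3.25 in limma-voom (adjusted p = 0.0704 and 0.188). With each library left out they ran from -5.14 to -3.87 and from -3.90 to -2.66, and lost the call without either Erg-deficient library. Dntt between genotypes ran from -1.09 to -0.39 and was called only without control pre-proB replicate 2. Robust estimation left Rag1 at 1.64 from pre-proB to proB (adjusted p = 0.0517 in edgeR) and 1.63 from proB to preB cells (adjusted p = 0.0606). With each library left out Dntt from pre-proB to proB cells ran from 0.24 to 0.89, past the threshold without pre-proB replicate 1, preB replicate 1 or preB replicate 2, and Rag2 from proB to preB cells from 0.26 to 0.34, past it without either pre-proB library. A pseudocount of 2 CPM gave 1.57 for Rag2 relative to Rag1 between genotypes and -1.03 between preB and pre-proB cells. A group reduced to 1 library was assumed to vary like the others, and the cause of these shifts was not tested.

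Between genotypes 151 genes were called in edgeR, 28 higher and 123 lower. The number was 279 with no filter, 88 with version 4 quasi-likelihood estimation, 442 with all 8 libraries, 400 in DESeq2 and 41 in limma-voom, and from 10 (without Erg-deficient replicate 2) to 401 (without control replicate 2) with a library left out. Without Erg-deficient replicate 1 the 16 calls were 10 higher and 6 lower. No source ties the replicate numbers to mice. The correlation of replicate differences between groups ran from -0.0353 to 0.150. This cannot show whether libraries shared a mouse, since differences between sorts and libraries also enter it. With the replicate number as a block 265 genes were called between genotypes, and no call of Rag1, Rag2 or Dntt changed. The number of libraries, 2 a group, limits the precision.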

Other observations

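Markers of early progenitors and of later B cells were read over the same steps. Of 8 early progenitor markers, 5 fell and 3 rose from pre-proB to proB cells, where 73% of all genes were called, and 5 fell and 2 rose from proB to preB cells, where 58.9% were. None was called between genotypes, where 1.16% of all genes were. Kit, the stem cell factor receptor gene, had 28.2 and 22.9 CPM at the pre-proB, 31.1 and 38.6 CPM at the proB and 3.31 and 4.68 CPM at the preB stage. It fell by 3.11 on the log2 scale at the last step (edgeR adjusted p = 7.12e-06), where Dntt fell by 2.95. Other members of the list went the other way there. Ly6d stood at 114 and 135 CPM in proB and 430 and 554 CPM in preB cells, and Il7r and Cd93 were also higher in preB cells. Flt3 fell from 502 and 580 to 20.7 and 27.6 CPM from pre-proB to proB cells (log2 -4.45, adjusted p = 5.36e-08 in edgeR), a step at which Dntt was not called.

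Of 8 markers of preB and later B cells, 8 rose from proB to preB cells, where 29% of all genes rose. Il2ra, which encodes CD25, a marker of preB cells, rose from 67.1 and 65.6 to 293 and 305 CPM (log2 2.18, adjusted p = 1.19e-06 in edgeR), and Cd2 from 22.9 and 20.9 to 119 and 128 CPM (log2 2.50, adjusted p = 1.88e-06). Igkc, the constant gene of the kappa light chain, rose by 0.84 on the log2 scale at that step (adjusted p = 0.000461 in edgeR). Surrogate light chain genes fell there, Igll1 by 2.33 (adjusted p = 0.00147 in edgeR) and Vpreb1 by 2.39 (adjusted p = 0.00141). Between genotypes 2 of the 8 later markers were lower, Igkc and Ms4a1, where 0.946% of all genes were. Of 6 plasma cell markers none was called between genotypes, where 1.16% of all genes were. From pre-proB to proB cells 4 rose and 2 fell, where 36.2% of all genes rose and 36.8% fell.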
